A study of Mus musculus with 15 samples.

Results

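Nodules that unprimed D2.A1 cells formed in mouse lung were set against nodules of primed D2.OR cells, to ask what still separated outgrowing D2.OR nodules from D2.A1 nodules that had needed no priming. The arrays were chosen by their titles. They were 9 of the 15 arrays of the series, 6 titled D2.A1 2D (3 spindle and 3 epithelial nodules) and 3 titled D2.OR 3D. Both lines are mouse mammary cancer cells of the D2.HAN series from BALB/c mice, and each D2.OR nodule is labelled spindle. Unprimed (2D) cells came from tissue culture plastic, and primed (3D) cells had been kept for 3 to 5 days on reconstituted basement membrane. All cells were given by the tail vein to female BALB/c mice. Parental cells of both lines are described in the methods as carrying a stably introduced firefly luciferase gene for imaging, selected with zeocin, and no knockdown or drug is labelled on either side. RNA of each nodule came from laser-microdissected, formalin-fixed and paraffin-embedded lung and was hybridized to 1 Affymetrix Mouse Gene 2.0 ST array. The stain is called crystal violet in the methods and cresyl violet in a legend.

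D2.OR cells reach the lung and then stay dormant, whereas D2.A1 cells grow out there without help. Dormancy of disseminated cells is known to depend on the cells themselves and on the tissue around them, including fibroblasts, matrix, blood vessels and immune cells. A microdissected nodule holds both, so its RNA is a sum over cancer cells and host cells. For any gene of a host cell type, fewer cells of that type and less RNA per cell cannot be told apart.

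Cell line and priming changed together in this comparison and cannot be told apart within it. With 3 mice per group, at least some of the 6 D2.A1 2D nodules shared a mouse. Which nodule came from which mouse is not labelled, and p-values over nodules are therefore too small. Spindle nodules of D2.A1 lay on the pleural surface and epithelioid nodules in the lung tissue itself, whereas D2.OR 3D nodules occurred in both places.

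Values were log2 units after Robust Multi-array Average (RMA), with array medians between 1.81 and 1.91 and a median gene at 1.94. They have no detection calls, so a value near 2 is a weak signal and not an absence. D2.OR 3D nodule 2 stood apart from the other D2.OR 3D nodules. The mean of 16 heart and skeletal muscle genes in nodules 1, 2 and 3 of D2.OR 3D was 2.25, 4.09 and 2.40, against 2.03 to 2.06 in D2.A1 2D. The mean of 10 genes that earlier results had linked to the tumor lines was 6.22, 4.35 and 6.36 in the same 3 nodules and 6.76 to 7.82 in D2.A1 2D. In D2.OR 2D nodules 2 and 3 this mean was lower, at 3.34 and 3.49. The list was chosen with earlier results of these data known, and whether it follows the share of cancer cells was not tested. Because D2.OR 3D nodule 2 stood apart, results are given with and without it where it mattered. Among epithelial keratins and junction genes, which mark mammary epithelium, the mean of 28 genes was 2.13 to 2.53 in D2.A1 2D. It was 2.56, 2.30 and 2.58 in D2.OR 3D, so the list mean was weak on both sides. Single members were not weak, and Krt8 and Krt18 had means of 5.18 and 4.59 over all 15 arrays. They differed between the sides by 0.44 and -0.53 (adjusted p = 0.84 and 0.82).

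Of 22180 genes, 44 (0.198%) were higher and 63 (0.284%) lower on the D2.A1 2D side than on the D2.OR 3D side, at an adjusted p under 0.05. The test was limma over all 15 arrays in 6 groups, with Benjamini-Hochberg adjustment over all genes. The 6 and 3 values did not overlap for any of these 107 genes. Without overlap, but regardless of the test, 441 genes (1.99%) were higher and 714 (3.22%) lower. These shares are the background for the counts without overlap in the lists below. Before adjustment, 777 and 1346 genes had a p under 0.05. The median difference over all genes was 0.0032 on the log2 scale. Single arrays moved the counts. Without D2.OR 3D nodule 2, 78 genes (0.352%) were higher and 542 (2.44%) lower. Among them were 43 of the 44 and 62 of the 63. These shares are the background for list counts without nodule 2. That fit rests on D2.OR 3D nodules 1 and 3, whose correlation of 0.969 was the highest between any arrays. Whether they came from different mice is not labelled. Without D2.OR 3D nodule 1 the counts were 20 and 29, and without nodule 3 they were 26 and 39. They were 29 and 38 without D2.A1 2D spindle nodule 1, 27 and 40 without epithelial nodule 1, and 38 were lower without epithelial nodule 3. Leaving out either D2.OR 2D nodule, which enters only through the shared spread, left 218 lower genes. Whichever array was left out, 18 higher and 18 lower genes passed.

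**Figure D1:**
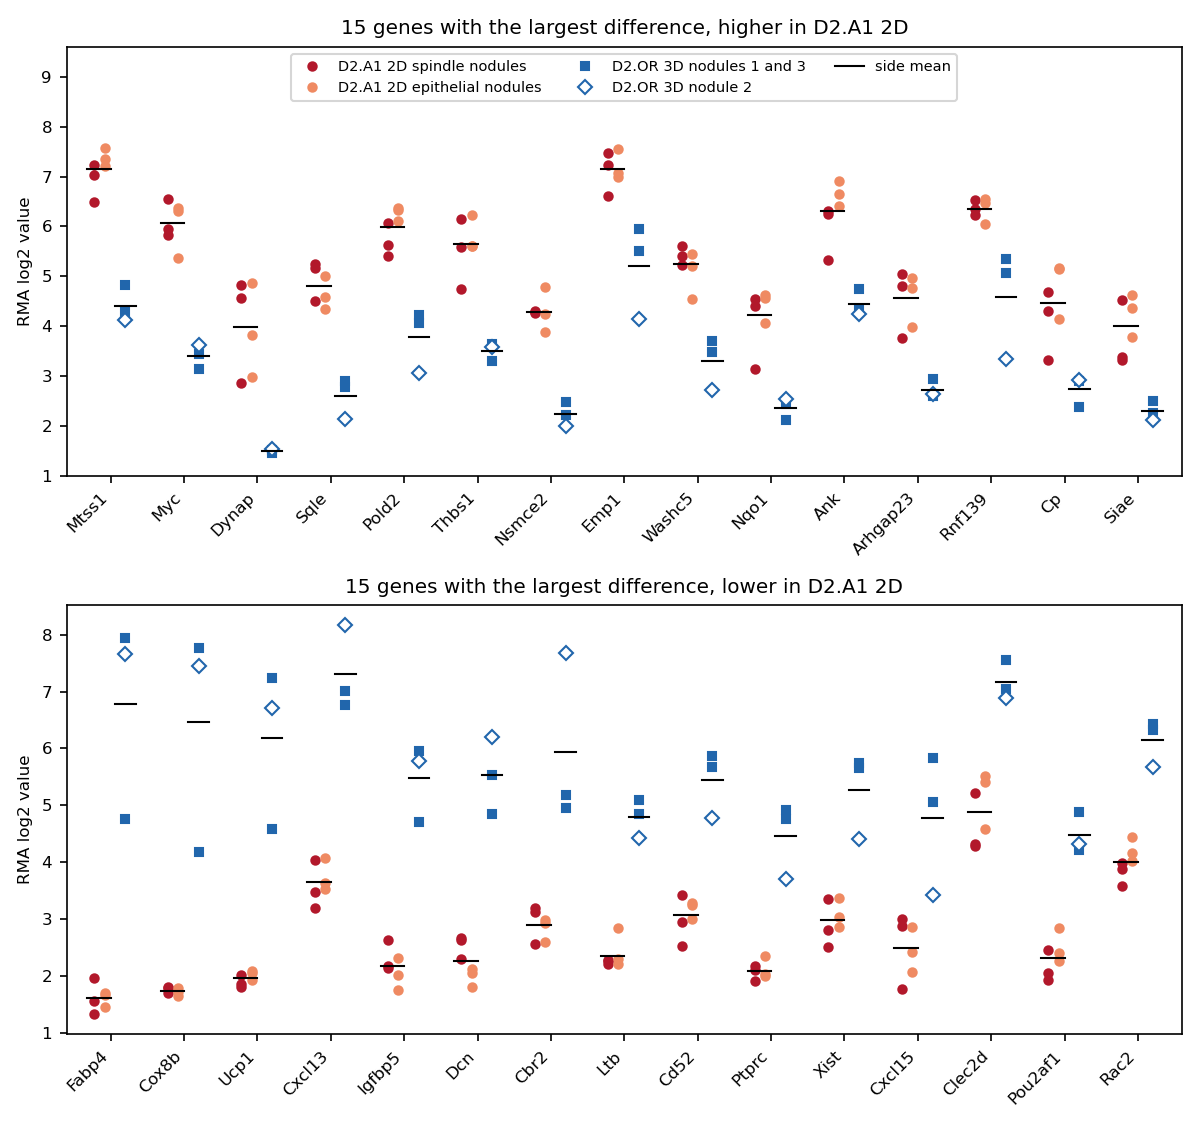
RMA log2 values (y axis) of 15 genes per direction, those that differed most (x axis), with 1 point per nodule and a line at the mean of each side (6 D2.A1 2D and 3 D2.OR 3D nodules). No D2.A1 2D value overlaps a D2.OR 3D value; D2.OR 3D nodule 2 is drawn as an open diamond.

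The genes that were higher in D2.A1 2D were concentrated on chromosome 15. Of the 44, 12 lay there, whereas the chromosome held 839 of the genes, or 3.81% of those with a known chromosome. Of the genes on chromosome 15, 1.43% were higher, against 0.198% of all genes. In the gene order of the mouse assembly GRCm38.p6, 10 of the 12 belonged to a run of 16 measured neighbours from Trmt12 to Pvt1. This run was chosen after the values were seen and is given as a description. Its median difference was 1.32, all 16 differences were positive, and 11 of its genes had no overlap between the sides. Of the 20 genes on each side of the run, none of 40 passed, with a median of 0.12. Of these 40, 29 had positive differences and 6 were higher without overlap, against 1.99% of all genes. The nearest neighbours, Tmem65 before Trmt12 and Macroh2a3 after Pvt1, differed by 0.95 and 0.47 (adjusted p = 0.075 and 0.45). The values thus do not place a sharp edge at Trmt12. The remaining 823 genes of the chromosome had 2 higher and 2 lower genes and a median of -0.028.

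Mtss1, which encodes a protein that binds actin and curved membranes, had the largest difference of all higher genes. Its lowest, median and highest values were 6.48, 7.23 and 7.57 in the D2.A1 2D nodules, and nodules 1, 2 and 3 of D2.OR 3D were at 4.82, 4.12 and 4.27. Every D2.A1 2D nodule was above every D2.OR 3D nodule by more than 1 log2 unit. The difference was 2.74 ± 0.18 (adjusted p = 3.0e-05), where every ± is the standard error of the limma fit.

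Myc, a transcription factor that drives growth and division, ran from 5.36 through a median of 6.13 to 6.54 in D2.A1 2D. In D2.OR 3D it was 3.14, 3.62 and 3.45. The sides were far apart, and nodule 2 was not low for this gene. The difference was 2.66 ± 0.23 (adjusted p = 0.00022), and 2.77 without nodule 2. Pvt1, a long noncoding RNA transcribed next to Myc, was weak on both sides, with 2.50, 3.16 and 3.65 as lowest, median and highest value in D2.A1 2D and 1.59, 1.64 and 2.17 in D2.OR 3D. It differed by 1.29 ± 0.16 (adjusted p = 0.0026).

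Sqle, or squalene epoxidase, an enzyme of cholesterol synthesis, spanned 4.34 to 5.25 with a median of 4.79 in D2.A1 2D and was 2.77, 2.14 and 2.89 in D2.OR 3D. Its difference was 2.21 ± 0.24 (adjusted p = 0.0015). It was the single called gene among 17 of lipid synthesis, a list whose median lay on the other side, at -0.64, and in which Elovl5, Fads1 and Fads2 were lower without nodule 2. Nsmce2, a SUMO ligase of the complex that helps repair DNA, differed by 2.06 ± 0.21 (adjusted p = 0.00097), and Washc5, a subunit of the complex that forms actin on endosomes, by 1.94 ± 0.23 (adjusted p = 0.0019). Smaller differences were those of Trib1, a pseudokinase that directs proteins to degradation, at 0.98, of Tatdn1, which resembles deoxyribonucleases, at 1.00, and of Trmt12, an enzyme of tRNA modification, at 0.97. Mtss1, Myc, Pvt1, Sqle, Nsmce2, Washc5, Trib1, Tatdn1 and Trmt12 passed whichever array was left out. Rnf139, a ubiquitin ligase of the endoplasmic reticulum, differed by 1.77 (adjusted p = 0.0491), but 11 of the single arrays ended its call when left out (adjusted p up to 0.122).

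The run was not uniform. Ndufb9, a subunit of respiratory complex I, had no overlap and a difference of 1.78, but an adjusted p of 0.11. D030024E09Rik did not pass either, at 1.35 (adjusted p = 0.060). Zfp572, Gm19510, 4933412E24Rik and A1bg had differences of 0.30, 0.12, 0.42 and 0.24 and mean levels of 1.71, 2.11, 2.37 and 2.07, near the median of all genes. The other higher genes of chromosome 15 were Ank, a membrane protein that exports citrate and ATP, and Tnfrsf11b, or osteoprotegerin, the decoy receptor for RANKL. They lay outside the run, with differences of 1.86 (adjusted p = 0.0019) and 1.34 (adjusted p = 0.0019). Laptm4b and Rac2, also of chromosome 15, were lower. Only RNA was measured in these nodules.

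**Figure D2:**
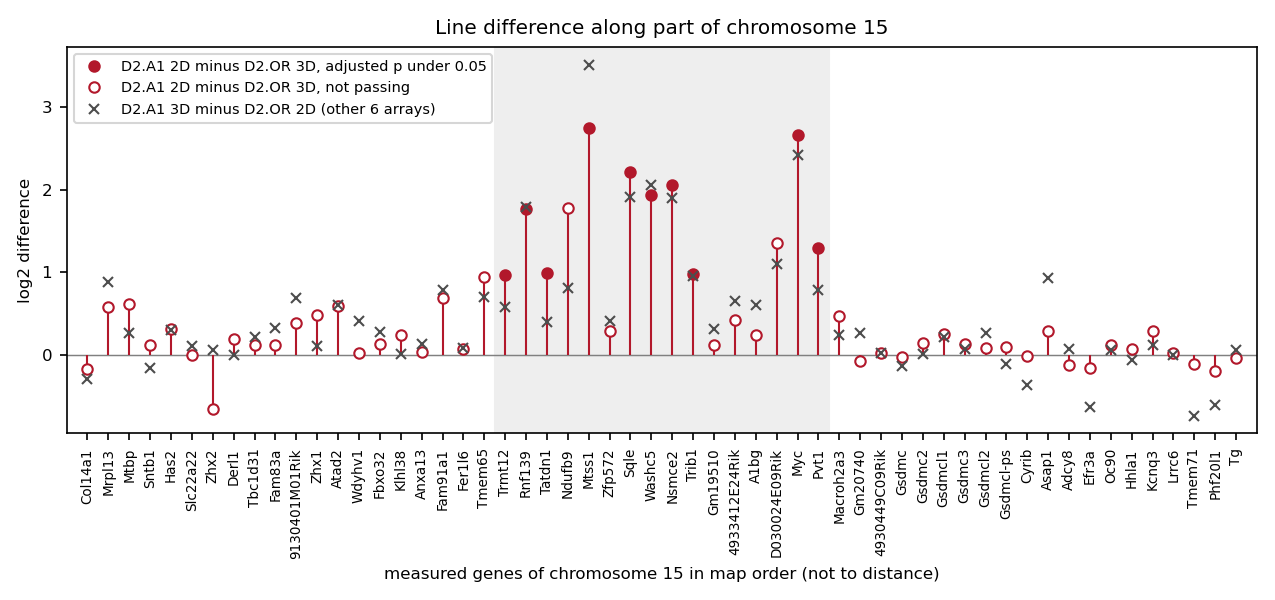
Log2 difference (y axis) of the 16 genes of the run (shaded) and 20 measured neighbours on each side, in gene order (x axis, not to distance). Circles give D2.A1 2D minus D2.OR 3D, filled where the adjusted p is under 0.05 (10 genes, all within the run); crosses give D2.A1 3D minus D2.OR 2D from the other 6 arrays.

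Outside chromosome 15, Thbs1, or thrombospondin 1, a matrix glycoprotein that binds cells and restrains vessel growth, had 4.74, 5.61 and 6.24 as lowest, median and highest value in D2.A1 2D and 3.65, 3.58 and 3.30 in D2.OR 3D. The D2.A1 2D range was wide but stayed above the D2.OR 3D values. It differed by 2.15 ± 0.25 (adjusted p = 0.0019) and was the single higher gene among 28 matricellular and other matrix genes, of which Dcn was lower and the median was -0.50. Emp1, an epithelial membrane protein, differed by 1.95 ± 0.33 (adjusted p = 0.022). Its D2.OR 3D values of 5.50, 4.15 and 5.95 were lowest in nodule 2, the difference was 1.43 without that nodule, and the call was lost with any of 5 single arrays (adjusted p up to 0.0673). Dynap, a dynactin-associated protein, was weak in D2.OR 3D (1.45, 1.53 and 1.51) and spread between 2.86 and 4.87 in D2.A1 2D. It differed by 2.49 (adjusted p = 0.025) and lost the call with any of 5 arrays (adjusted p up to 0.124).

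Pold2, a subunit of the replicative DNA polymerase delta, ran from 5.40 to 6.36 with a median of 6.08 in D2.A1 2D and was 4.06, 3.06 and 4.22 in D2.OR 3D. It differed by 2.20 ± 0.25 (adjusted p = 0.0018), while none of the 44 cell cycle genes passed. Nqo1, a quinone reductase of the oxidative stress response, differed by 1.86 ± 0.27 (adjusted p = 0.0086), but not once D2.OR 3D nodule 3 was left out (adjusted p = 0.0532). Ceruloplasmin (Cp), a copper-carrying iron oxidase, and Siae, a sialic acid esterase, differed by 1.73 (adjusted p = 0.0493) and 1.71 (adjusted p = 0.029), with calls that were lost with 8 and 6 of the single arrays and adjusted p-values up to 0.228 and 0.136.

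Some smaller differences, of genes named after their values were seen, concerned signaling. Notum, which inactivates Wnt proteins, differed by 1.49 (adjusted p = 0.021). Klf5, a transcription factor of epithelia, differed by 1.43 (adjusted p = 0.017), and Spry1, an inhibitor of receptor kinase signaling, by 1.12 (adjusted p = 0.016). Slc20a1, a phosphate transporter, differed by 1.63 (adjusted p = 0.0057) and kept its call whichever array was left out. Klf5 and Spry1 lost theirs without D2.OR 3D nodule 1 (adjusted p = 0.102 and 0.0973), and Notum with 4 arrays (up to 0.10). Mesothelin (Msln), a surface protein of the mesothelium, was higher by 1.24 (adjusted p = 0.036, up to 0.155 when 1 of 10 arrays was left out), whereas another gene of the mesothelium list, Igfbp5, was lower and the list's 11 genes had a median of -0.048.

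Small noncoding RNAs, also chosen after their values were seen, made up 6 of the 44 higher genes and none of the lower ones. They were Snord118 (the U8 RNA, needed to process ribosomal RNA), Snord82, Snora15 and Snora75 among 78 snoRNAs. The others were Rny1 among 3 Y and 7S RNAs, and Mir5099 among 472 microRNAs. Of all genes 0.198% were higher, and 1 of 472 microRNAs is near that share. Snord118 had a median of 10.7 in D2.A1 2D and lay at 9.20, 9.65 and 9.27 in D2.OR 3D. These are among the strong signals of the array, unlike most called genes. Snord118 differed by 1.35 ± 0.14 (adjusted p = 0.00091), and Snord118, Snora15 and Snora75 passed whichever array was left out. Snord82, Rny1 and Mir5099 lost the call with 3, 7 and 2 arrays (adjusted p up to 0.124, 0.124 and 0.103). The median difference of all snoRNAs was -0.19 and that of the microRNAs 0.021.

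Fat cell genes had the largest differences in the other direction. Fabp4, a fatty acid carrier of adipocytes, stayed between 1.32 and 1.96 with a median of 1.60 in D2.A1 2D and reached 7.94, 7.66 and 4.75 in nodules 1, 2 and 3 of D2.OR 3D. Nodule 3 was about 3 log2 units below the other D2.OR 3D nodules and still far above D2.A1 2D. The difference was -5.18 ± 0.68 (adjusted p = 0.0044), and it passed whichever array was left out. Ucp1, the uncoupling protein of brown fat, was 7.23, 6.71 and 4.59 in D2.OR 3D and at most 2.09 in D2.A1 2D, a difference of -4.22 ± 0.66 (adjusted p = 0.016). Cox8b, a cytochrome c oxidase subunit of brown fat and muscle, was 7.77, 7.46 and 4.17 against at most 1.79, a difference of -4.73 ± 0.74 (adjusted p = 0.016). Without D2.OR 3D nodule 1 neither passed (adjusted p = 0.0973 and 0.0976).

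Of 23 measured fat cell genes these 3 were lower and none higher, 12 had no overlap between the sides, and their median difference was -1.30 against 0.0032 over all genes. The list mean in nodules 1, 2 and 3 of D2.OR 3D was 3.91, 4.11 and 2.61, and it lay between 1.95 and 2.04 in D2.A1 2D. Mitochondrial lists lay lower by smaller medians, -0.37 for 52 genes of the respiratory chain, -0.36 for 25 of the citrate cycle and -0.59 for 23 of fatty acid oxidation. Cox8b was their one called member. The lowest adjusted p-values in the citrate cycle and in fatty acid oxidation were those of Acly, which makes acetyl-CoA for lipids, at -1.93 (adjusted p = 0.13, past the threshold without nodule 2), and Hadhb, which acts in the last steps of beta-oxidation, at -0.74 (adjusted p = 0.19). The part of the fat cell signal in the mitochondrial lists was not tested.

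Some genes of fibroblasts and loose matrix were lower in D2.A1 2D. Dcn, or decorin, a proteoglycan of connective tissue, had 1.81, 2.21 and 2.67 as lowest, median and highest value in D2.A1 2D and 4.85, 6.20 and 5.53 in D2.OR 3D. The gap between the sides was over 2 log2 units. It differed by -3.27 ± 0.26 (adjusted p = 0.00013). Dpt, or dermatopontin, which helps collagen fibrils form, lay at 1.62, 1.74 and 1.86 against 3.42, 3.57 and 3.26, with the same adjusted p as Mtss1 at 3.0e-05 and a difference of -1.67 ± 0.10. Inmt, a methyltransferase that is abundant in lung, differed by -1.98 ± 0.17 (adjusted p = 0.00018). Igfbp5, a secreted binder of insulin-like growth factors, differed by -3.32 ± 0.26 (adjusted p = 0.00013), and Dcn, Dpt, Inmt and Igfbp5 passed whichever array was left out.

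Of 18 measured fibroblast genes these 3 (Dcn, Dpt and Inmt) were lower and none higher, 7 were lower without overlap, and the median was -0.94. Their mean was 2.89 to 3.16 in D2.A1 2D and, for nodules 1, 2 and 3 of D2.OR 3D, 4.18, 3.52 and 4.54, so nodule 2 was nearest to D2.A1 2D. Without nodule 2, 9 of the 18 were lower, adding Col1a1, Col1a2, Col3a1, Pdgfra, Lum and Mfap4. The mean of 20 collagen genes was 3.34 to 3.63 in D2.A1 2D, and 4.31, 3.11 and 4.60 in nodules 1, 2 and 3 of D2.OR 3D, so nodule 2 lay below all D2.A1 2D nodules and nodules 1 and 3 above them. Of the 20 collagen genes 1 was lower, Col5a3, a minor fibrillar chain, at -1.0 (adjusted p = 0.019, but up to 0.0706 without D2.A1 2D epithelial nodule 1 or D2.OR 3D nodule 1 or 3), and 8 without nodule 2. Of the 28 matricellular and other matrix genes 10 were lower without nodule 2, among them Postn, Tnc and Sparc. The mean of the 28 was 3.58 to 3.96 in D2.A1 2D and 4.49, 3.56 and 4.75 in D2.OR 3D, again lowest in nodule 2. Adamts5, a protease that cuts proteoglycans, was the single lower gene among 30 matrix proteases and inhibitors, at -0.53 (adjusted p = 0.026, up to 0.134 when 1 of 7 arrays was left out), and without nodule 2 there were 1 higher and 4 lower. No laminin or basement membrane gene among 18 passed, with Lama4 at -1.77 (adjusted p = 0.095), and 2 were lower without nodule 2.

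**Figure D3:**
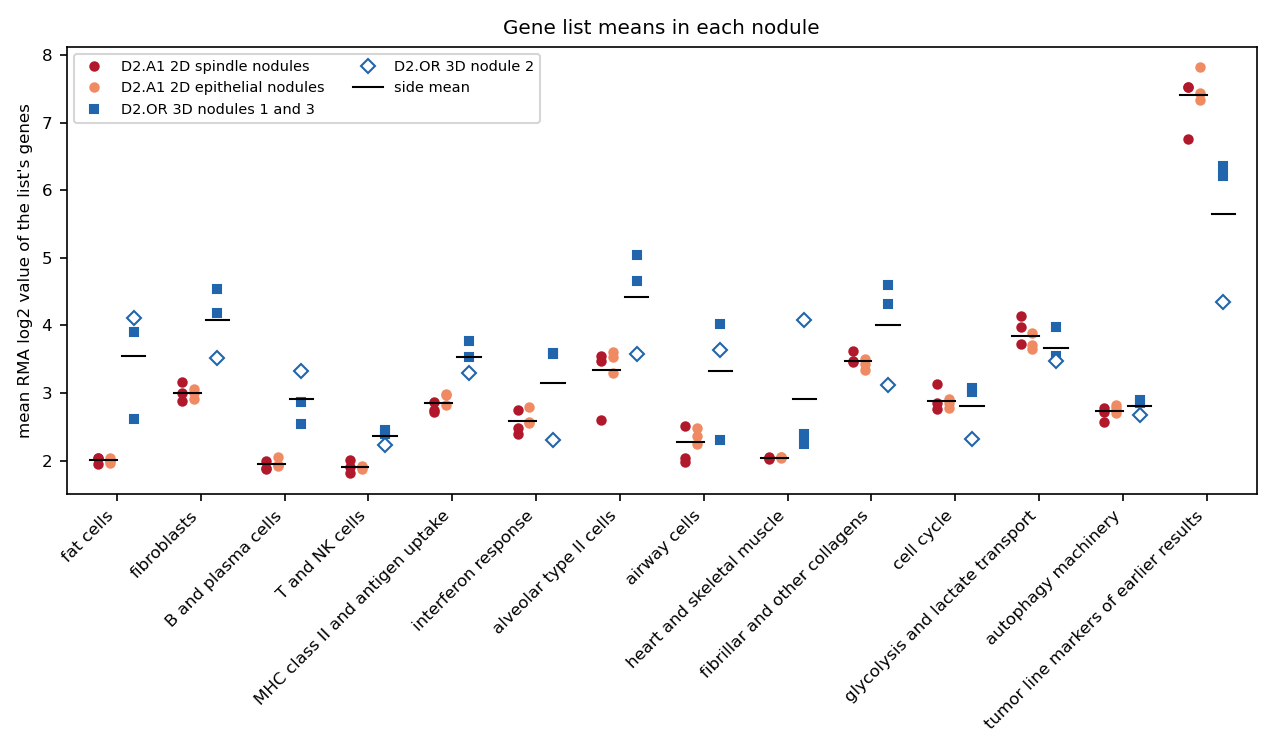
Mean RMA log2 value (y axis) over the genes of 14 lists (x axis) in each nodule, with a line at the mean of each side. Means of all 3 D2.OR 3D nodules lie above the 6 D2.A1 2D nodules for fat, fibroblast and B cell genes. The same holds for T and NK cell, MHC class II, and heart and skeletal muscle genes, and the opposite for tumor line genes. D2.OR 3D nodule 2 (open diamond) is high in heart and skeletal muscle genes (4.09) and low in the tumor line genes (4.35).

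Some genes of B cells and of lymphoid tissue were lower in D2.A1 2D as well. Cxcl13, the chemokine that draws B cells into follicles, had 3.19, 3.57 and 4.07 as lowest, median and highest value in D2.A1 2D and 6.77, 8.18 and 7.0 in D2.OR 3D. All 3 D2.OR 3D nodules were high, nodule 2 most. It differed by -3.67 ± 0.43 (adjusted p = 0.0019) and passed whichever array was left out. Ltb, or lymphotoxin beta, which organizes lymphoid tissue, was 2.20 to 2.84 in D2.A1 2D and 4.84, 4.42 and 5.10 in D2.OR 3D, a difference of -2.44 ± 0.21 (adjusted p = 0.00018). Cxcr5, the receptor for Cxcl13 on B cells, differed by -1.04 (adjusted p = 0.032, up to 0.166 when 1 of 10 arrays was left out).

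Of 14 measured B and plasma cell genes, 4 were lower, none was higher and 10 had no overlap, with a median of -0.83. Pou2af1, a transcription coactivator of B cells, lay at 1.92 to 2.84 in D2.A1 2D and at 4.87, 4.33 and 4.21 in D2.OR 3D, a difference of -2.15 ± 0.23 (adjusted p = 0.0012). Cd79a and Cd79b, the signaling chains of the B cell receptor, differed by -1.86 (adjusted p = 0.0098) and -2.01 (adjusted p = 0.0491), and Cd22, a brake on that receptor, by -1.57 (adjusted p = 0.017). The list mean in nodules 1, 2 and 3 of D2.OR 3D was 2.87, 3.32 and 2.55, against 1.87 to 2.05 in D2.A1 2D. Cd79a and Cd22 needed D2.OR 3D nodule 1 to pass (adjusted p = 0.074 and 0.102 in its absence), and Cd79b failed without nodule 2 (0.058) or any of 11 other arrays (up to 0.223), while Pou2af1 passed whichever array was left out.

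Some genes shared by leukocytes were also lower. Ptprc, or CD45, the phosphatase on all white blood cells, differed by -2.37 (adjusted p = 0.021), Cd52, a small surface glycoprotein of lymphocytes, by -2.37 (adjusted p = 0.0074), and Rac2, the GTPase of blood cells, by -2.14 ± 0.24 (adjusted p = 0.0015). Rac2 was 3.57 to 4.44 in D2.A1 2D and 6.32, 5.67 and 6.44 in D2.OR 3D. Clec2d, a lectin-like ligand of natural killer cell receptors, differed by -2.27 ± 0.27 (adjusted p = 0.0019). Rac2 and Clec2d passed whichever array was left out, Cd52 did not without D2.OR 3D nodule 1 (0.0585), and Ptprc did not with 5 arrays (up to 0.131). None of 18 T and NK cell genes passed, with a median of -0.26, whereas 4 were lower without nodule 2. Cd5 (-0.63, adjusted p = 0.052) and Cd3e (-1.27, adjusted p = 0.11) came closest. Regardless of the test, 4 of the 18 were lower without overlap and none higher. The list mean was 1.81 to 2.00 in D2.A1 2D, and 2.40, 2.23 and 2.45 in nodules 1, 2 and 3 of D2.OR 3D. None of 23 macrophage and monocyte genes passed with all arrays, and 1 was higher (Arg1) and 3 lower (Adgre1, Itgax and Lyz2) without nodule 2. None of 15 neutrophil and mast cell genes passed with or without nodule 2, with a median of -0.022. Retnla, a secreted protein of alternatively activated macrophages, is outside the macrophage list and was named after its values were seen. It was lower by 2.13 on the log2 scale (adjusted p = 0.0050). Of the 23 listed macrophage and monocyte genes, 3 were higher and 3 lower without overlap.

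MHC class II genes, which present antigen to helper T cells, were among the lower genes together with Ciita, the coactivator that switches them on. H2-Ab1, a beta chain, had 4.43, 5.30 and 5.83 as lowest, median and highest value in D2.A1 2D and 8.02, 6.32 and 7.48 in D2.OR 3D. Nodule 2 was closest to D2.A1 2D. It differed by -2.12 ± 0.36 (adjusted p = 0.024). H2-Eb1, another beta chain, differed by -1.66 ± 0.27 (adjusted p = 0.018), H2-Aa, an alpha chain, by -1.34 ± 0.19 (adjusted p = 0.0074), and Ciita by -0.87 ± 0.15 (adjusted p = 0.025). H2-DMb2, which helps load peptide, is outside the list and differed by -1.35 ± 0.20 (adjusted p = 0.011). Of 13 measured genes of class II and antigen uptake 4 were lower, none was higher and 8 had no overlap, with a median of -0.41. The same 4 passed without nodule 2, with H2-Ab1 then at -2.60 (adjusted p = 0.0013). These calls were less stable to other arrays. Without D2.OR 3D nodule 1, H2-Aa did not pass (0.057), H2-Eb1 and H2-DMb2 did not without nodule 1 or 3 (up to 0.0973 and 0.074), and H2-Ab1 and Ciita did not with 6 arrays each (up to 0.136 and 0.145).

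Class II promoters share a reversed CCAAT element, the Y box, at which the factor NF-Y binds and which lies beside the site of the complex that recruits Ciita. The core GATTGG is shown for the 3 called class II genes with a promoter entry, from RefSeq sequence of GRCm38.p6 on chromosome 17. That assembly is of another strain, C57BL/6J, than the BALB/c cells and hosts. Each line runs 5′ to 3′ on the strand of its gene, and the capitals mark the first copy of the core on that strand. The H2-Eb1 line also holds the core on the other strand, as ccaatc in lower case.
H2-Aa: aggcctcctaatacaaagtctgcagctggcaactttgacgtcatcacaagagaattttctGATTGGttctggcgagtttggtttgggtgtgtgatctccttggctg
H2-Eb1: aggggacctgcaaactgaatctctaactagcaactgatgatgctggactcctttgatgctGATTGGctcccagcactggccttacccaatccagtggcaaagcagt
H2-DMb2: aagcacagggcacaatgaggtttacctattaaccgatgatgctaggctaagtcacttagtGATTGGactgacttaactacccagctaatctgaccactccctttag

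These stretches lie at chr17:34287827-34287932 on the minus strand for H2-Aa, at chr17:34305747-34305852 on the plus strand for H2-Eb1 and at chr17:34145098-34145203 on the plus strand for H2-DMb2. The marked core begins 49, 60 and 91 bases before the annotated start of H2-Aa, H2-Eb1 and H2-DMb2. On either strand, GATTGG was found in at least 1 promoter of 7 of 7 class II genes with an entry (H2-Aa, H2-Eb1, H2-DMa, H2-DMb1, H2-DMb2, H2-Oa and H2-Ob). It was found in 16.1% of all 32851 promoters of 300 bases (250 before and 50 after the start). The count is by gene and the share is by single promoter, so they are in unlike units. The longer CTGATTGG, which contains the core, occurs in 4.1%. A match is a description of these letters and not a measured binding site. H2-Ab1 and Ciita are named only.

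Other immune lists had no call with all arrays and several without nodule 2. None of 13 genes of MHC class I and peptide loading passed, with a median of -0.57, and 4 were lower without nodule 2, among them B2m and Tap1. None of 23 interferon response genes passed, with a median of -0.50. Without nodule 2, 9 of them were lower, among them Isg15, Irf7, Stat2 and Cxcl10. The mean of the interferon list in nodules 1, 2 and 3 of D2.OR 3D was 3.59, 2.30 and 3.57, against 2.40 to 2.79 in D2.A1 2D, so nodule 2 lay below all D2.A1 2D nodules and nodules 1 and 3 above them. Of 35 chemokines and cytokines 2 were lower, Cxcl13 and Il33, an alarm cytokine of barrier cells, at -1.02 (adjusted p = 0.045, up to 0.138 when 1 of 12 arrays was left out), and 9 were lower without nodule 2.

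Lung genes were lower in part. Of 14 alveolar type II genes, those of the cells that make surfactant, 2 were lower and none higher, with a median of -1.0. Cxcl15, a chemokine of lung epithelium, had 1.77, 2.63 and 3.00 as lowest, median and highest value in D2.A1 2D and 5.05, 3.42 and 5.83 in D2.OR 3D. It differed by -2.27 ± 0.42 (adjusted p = 0.039), and by -2.95 without nodule 2. Napsa, a protease that processes surfactant proteins, differed by -1.11 ± 0.16 (adjusted p = 0.0091). Cxcl15 lost its call with 12 arrays (up to 0.184) and Napsa without D2.OR 3D nodule 3 (0.0552). The list mean in nodules 1, 2 and 3 of D2.OR 3D was 4.65, 3.58 and 5.04, against 2.60 to 3.60 in D2.A1 2D, and 8 of the 14 were lower without nodule 2. Cbr2, a carbonyl reductase of lung outside these lists, differed by -3.05 ± 0.46 (adjusted p = 0.011). It was 4.95, 7.68 and 5.18 in D2.OR 3D, highest in nodule 2, without which the difference was -2.18 (adjusted p = 5.0e-05).

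No alveolar type I gene among 12 passed (median -0.016) and no airway gene among 14 (median -1.08). The airway mean in nodules 1, 2 and 3 of D2.OR 3D was 2.30, 3.64 and 4.02, against 1.98 to 2.51 in D2.A1 2D, so nodule 1 lay within the D2.A1 2D range. Of 20 endothelial genes 1 was lower, Ramp2, the coreceptor for adrenomedullin, at -0.52 (adjusted p = 0.016). Of 10 pericyte genes 1 was lower, Rgs5, a regulator of G protein signaling, at -1.09 (adjusted p = 0.028). Each of these lists had 2 lower genes without nodule 2. Regardless of the test, 5 endothelial genes were lower and 1 higher without overlap, and 2 pericyte genes were lower. Ramp2 needed both D2.OR 3D nodule 1 and nodule 3 to pass (up to 0.102), and Rgs5 failed with 8 arrays (up to 0.163). Of 16 heart and skeletal muscle genes none passed, 6 had no overlap and the median was -0.67. Without nodule 2 the median was -0.22 and 3 were lower, Myh6, Myl7 and Tnni3. Pln, a regulator of the calcium pump of heart muscle, and Ankrd1, a nuclear protein of stressed heart muscle, are outside the list. They were named after their values were seen, and were lower by 1.44 and 1.39 on the log2 scale (adjusted p = 0.044 and 0.0069). For Pln, nodules 1, 2 and 3 of D2.OR 3D stood at 2.40, 4.15 and 2.90, with nodule 2 highest, and its call was lost with 11 arrays (up to 0.107), whereas Ankrd1 passed whichever array was left out. The part of lung, fat, heart and immune cells in the other differences was not tested.

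Several other lower genes are outside the cell type lists. Xist, the RNA that coats the inactive X chromosome, had 2.51, 2.94 and 3.36 as lowest, median and highest value in D2.A1 2D and 5.75, 4.40 and 5.66 in D2.OR 3D. All animals are labelled female. It differed by -2.28 ± 0.29 (adjusted p = 0.0036) and passed whichever array was left out. Gas6, the ligand of the TAM receptors, was the single called gene among 33 dormancy signals, at -1.50 ± 0.23 (adjusted p = 0.012; 0.051 without D2.OR 3D nodule 3), while without nodule 2 Tgfb3 and Tgfbr2 were lower too. Epas1, or HIF-2 alpha, was the single one among 19 hypoxia genes, at -1.51 (adjusted p = 0.028, up to 0.131 when 1 of 7 arrays was left out), and Hif1a and Car12 were lower too without nodule 2. Pltp, which moves phospholipids between lipoproteins, and Plpp3, which degrades lysophosphatidic acid at the cell surface, differed by -1.48 (adjusted p = 0.0019) and -1.26 (adjusted p = 0.0015), and both passed whichever array was left out.

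The Pfkfb genes, which encode the enzymes that set the level of fructose 2,6-bisphosphate and thereby glycolysis, did not separate the sides. Pfkfb3 had 2.48, 2.67 and 2.83 as lowest, median and highest value in D2.A1 2D and 3.56, 3.15 and 2.83 in D2.OR 3D. D2.OR 3D nodule 3 met the top of the D2.A1 2D range. The difference was -0.52 ± 0.20 (adjusted p = 0.40). Pfkfb2 and Pfkfb4 differed by -0.031 and -0.050 (adjusted p = 0.95 for both). Of 9 phosphofructokinase and Pfkfb genes none passed (median -0.031), and Pfkp was lower without nodule 2, at -0.58 (adjusted p = 0.017).

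Most other lists of cancer cell function had few calls or none. None of 18 glycolysis and lactate genes passed (median 0.16), with Pgk1 at 1.43 (adjusted p = 0.081) and Gapdh at 1.04 (adjusted p = 0.13), and Slc16a3, a lactate exporter, was lower without nodule 2. None of 39 autophagy genes passed (median -0.070), with Tfeb, a master regulator of lysosomal genes, at -0.35 (adjusted p = 0.14), and none of 26 lysosomal genes (median -0.034), of which 4 were lower without nodule 2. Cell cycle genes had a median of 0.073, and Ccnd3, or cyclin D3, was lower without nodule 2 at -2.17 (adjusted p = 0.00058). Of 21 genes of epithelial-mesenchymal transition none passed, with S100a4 at 2.11 (adjusted p = 0.11) and Snai1 at 0.88 (adjusted p = 0.10), and 4 were lower without nodule 2. Nor did any of 34 integrin and adhesion genes, 21 S100 and annexin genes, 31 Wnt genes, 36 growth factor and receptor kinase genes or 19 cell cycle inhibitors with all arrays. Without nodule 2, S100a6 and Anxa2 were higher. Lower without it were 2 integrin and adhesion genes (Itga7 and Itgb3), 2 Wnt genes (Sfrp1 and Sfrp2) and 1 cell cycle inhibitor (Rbl2). So were 4 growth factor and receptor kinase genes (Egfr, Erbb2, Pdgfra and Pdgfrb). No test set such list counts against the 2.44% of all genes that were lower without nodule 2. Among 25 stem cell markers, Myc was the only called gene with all arrays, and Cd24a, Itgb3 and Notch1 were lower without nodule 2. Of the 10 tumor line genes, a list chosen with earlier results of these data known, Emp1 and Thbs1 were higher, 4 without nodule 2.

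Both morphologies of D2.A1 2D were compared with D2.OR 3D on their own, with the 3 D2.OR 3D arrays shared. Against spindle nodules, which match the label of the D2.OR nodules, 38 genes (0.171%) were higher and 40 (0.18%) lower. Against epithelial nodules 24 (0.108%) were higher and 26 (0.117%) lower. Mtss1 differed by 2.51 in spindle and 2.97 in epithelial nodules, Myc by 2.71 and 2.61, Fabp4 by -5.18 and -5.19 and Dcn by -2.99 and -3.54. All 4 passed in both, whereas H2-Ab1 passed against spindle (-2.45, adjusted p = 0.030) and not against epithelial nodules (-1.79, adjusted p = 0.18). The morphologies themselves differed in no gene by limma (0% higher and 0% lower, with 475 and 490 genes past 0.05 before adjustment and a lowest adjusted p of 0.10), so these counts do not show that spindle and epithelial nodules stand differently to D2.OR 3D. The lowest p belonged to Saa3, an acute phase protein, at 6.27, 5.80 and 6.42 in spindle and 3.25, 3.23 and 2.43 in epithelial nodules, a difference of 3.19 ± 0.41 (adjusted p = 0.10). Tatdn1 and Vmn2r55 were next among genes that were higher in spindle nodules, at 1.06 and 1.27 (adjusted p = 0.15 and 0.21), and Tfam, Kifc3 and Abcc3 among those that were lower, at -0.59, -0.54 and -0.58 (adjusted p = 0.21, 0.25 and 0.34). None of these 6 passed. Leaving out D2.OR 3D nodule 2 gave 79 higher and 468 lower genes against spindle and 43 and 318 against epithelial nodules.

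The 6 arrays left aside so far, 4 of D2.A1 3D and 2 of D2.OR 2D, hold the same lines with the priming the other way round. The comparisons share no array, although the fit shares 1 estimate of the spread. D2.A1 3D differed from D2.OR 2D in 238 higher genes (1.07%) and 582 lower genes (2.62%). Of the 44 higher genes of the main comparison, 27 were also higher there (61.4% of the 44 and 11.3% of the 238), and of the 63 lower genes 41 were also lower (65.1% and 7.04%). With the 6 arrays fitted alone, where 130 genes were higher and 109 lower, 22 (50% and 16.9%) and 26 (41.3% and 23.9%) were shared. In sign, 43 of the 44 and 59 of the 63 agreed, against 55.4% of all genes with a positive and 44.6% with a negative difference. Stmn2 among the higher genes, and Ccdc80, Cxcl15, Exoc3 and Il17rc among the lower ones, had the other sign, and Il17rc, an interleukin receptor, passed as higher in D2.A1 3D (0.60, adjusted p = 0.012).

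The chromosome 15 run was shared in large part. Mtss1 was 7.91 and 7.76 in the spindle and 8.32 and 8.06 in the epithelial nodules of D2.A1 3D, against 4.56 and 4.43 in D2.OR 2D, a difference of 3.51 (adjusted p = 1.5e-05). Myc was 5.91 and 5.94 in spindle and 5.35 and 5.57 in epithelial nodules, against 3.00 and 3.53, a difference of 2.42 (adjusted p = 0.00080). In all, 8 of the 16 genes of the run were higher in these arrays, with a median of 0.88, and 6 with the 6 arrays fitted alone. Trmt12 and Tatdn1 were not (adjusted p = 0.054 and 0.24).

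Of the genes that were lower in D2.A1 2D, some also passed as lower in D2.A1 3D against D2.OR 2D, and others did not. Fabp4 reached 10.9 and 7.90 in nodules 2 and 3 of D2.OR 2D, against 2.65 to 2.99 in D2.A1 3D, a difference of -6.54 (adjusted p = 0.0013). Dcn differed by -2.81 (adjusted p = 0.00065), Ltb by -3.93 (adjusted p = 1.5e-05) and Xist by -2.38 (adjusted p = 0.0034). These genes were lower in D2.A1 nodules in both comparisons. Which cells the Xist signal came from was not tested. Cxcl15 did not differ detectably there, at 0.26 (adjusted p = 0.89), nor did Cbr2 at -0.16 (adjusted p = 0.95), Inmt at -0.39 (adjusted p = 0.42) or H2-Ab1 at -0.92 (adjusted p = 0.36). Whether these differences were unequal between the comparisons was not tested. Pfkfb3 was 5.81 and 5.45 in D2.OR 2D and 2.20 to 3.42 in D2.A1 3D, a difference of -2.94 (adjusted p = 9.9e-05), beside the -0.52 that did not pass in D2.A1 2D against D2.OR 3D.

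**Figure D4:**
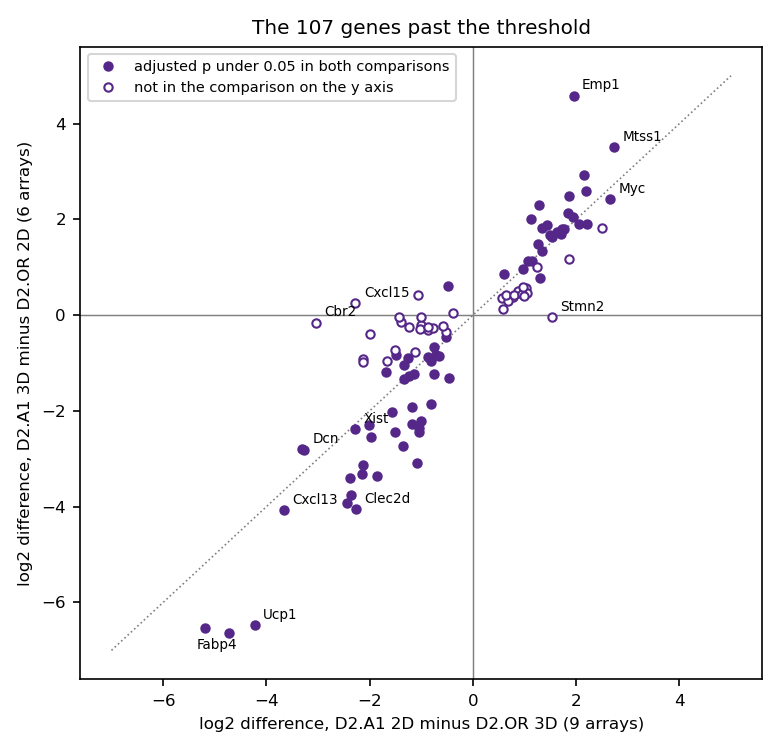
Log2 differences of the 107 genes past the threshold in D2.A1 2D against D2.OR 3D (x axis, 9 arrays) and in D2.A1 3D against D2.OR 2D (y axis, the other 6 arrays), with the line of equal values dotted. Filled points passed in both (27 higher and 41 lower genes, and Il17rc, which passed with the other sign); Cbr2 and Cxcl15 lie near 0 on the y axis.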

How the data were processed

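RNA of 15 nodules was measured on 1 array each. Values were background-corrected, scaled and summarized by the authors with Robust Multi-array Average (RMA), and the values they deposited are on a log2 scale, 1 per transcript cluster (the log base follows from the method). The submitters' processing notes name RMA, Affymetrix Expression Console and Transcriptome Analysis Console, without versions. RMA scales arrays to each other and compresses weak differences. Of 41345 clusters, 23521 have 1 gene symbol, 1820 several (not used) and 16004 none, and a gene with several clusters was given by the one with the highest mean, which left 22180 genes. No filter was applied, no 2 arrays were identical, and correlations between arrays ran from 0.855 to 0.969.

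The model was fitted in limma 3.58.1 (R 4.3.3) to all 15 arrays in 6 groups (9 residual and 3.20 prior degrees of freedom), with Benjamini-Hochberg adjustment and a threshold of 0.05. The script was tested on simulated data. D2.A1 2D was the mean of its spindle and epithelial group means. The number of arrays limits the precision, and p-values measure the spread between nodules.

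Named genes were the 15 called genes without overlap that differed most, per direction, the Pfkfb genes, up to 4 called members of each of 43 lists (or 1 or 2 with the lowest adjusted p where none passed) and 3 per direction for spindle against epithelial nodules. Others were named after their values were seen. Of 957 list genes 893 were measured, 4 through an older symbol. The comparison and the lists were chosen with earlier results of these data known. Alternatives were all clusters, filters on weak genes, another variance prior, array weights, fits of fewer arrays, the replicate number as a block, numbers averaged, an alveolar type II covariate, cyclic loess, the methods' t-test and each array left out. A heart and skeletal muscle covariate was added after seeing the data. Chromosomes and gene order came from RefSeq (GRCm38.p6), and promoters from its table, which held 58 of the 107 called genes.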

Additional observations from a re-analysis of the deposited data

How the results depend on the processing

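The values of the sides did not overlap for any called gene. Leaving out, weighting or averaging arrays therefore could not reverse a direction, nor could another test, variance prior or filter. A reversal was possible in the covariate, block and cyclic loess fits. All 52 called genes that the text names by rule or in the chromosome 15 run kept their direction under every alternative in which they were tested. Their calls held for 52 with all transcript clusters, array weights or cyclic loess, 45 with only the 9 arrays, 34 with the alveolar type II covariate, 28 with nodules of 1 number averaged and 20 with the methods' t-test after adjustment. They held for 28 without D2.OR 3D nodule 1, 34 without nodule 3 and 51 without nodule 2. Counts of higher and lower genes in the main comparison (44 and 63) moved more. They were 254 and 1057 with array weights, 106 and 118 with cyclic loess, 230 and 97 with the alveolar type II covariate, 26 and 15 with nodules of 1 number averaged, and 35 and 118 with only the 9 arrays (39 and 156 as 2 groups). The added heart and skeletal muscle covariate gave 63 and 595. By the methods' t-test they were 721 and 1366 unadjusted and 13 and 44 after Benjamini-Hochberg, and by a 2-fold difference with an unadjusted p under 0.05 they were 96 and 222. The cause of these shifts was not tested, but the array weights were 3.12, 0.325 and 1.12 for D2.OR 3D nodules 1, 2 and 3.

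With single arrays left out, the counts ranged from 20 to 78 and from 29 to 542. They ranged from 17 to 79 and 12 to 468 for spindle and from 7 to 43 and 5 to 318 for epithelial nodules against D2.OR 3D. For spindle against epithelial nodules they were 0 to 1 and 0, and 1 gene was higher among genes above the median. In the other 6 arrays, D2.A1 3D set against D2.OR 2D, they ranged from 130 to 214 and 293 to 932, and were 130 and 109 when fitted alone. The replicate number as a block gave 32 and 48 for the main comparison, 29 and 32 for spindle, 22 and 16 for epithelial nodules, and 114 and 394 in the other 6 arrays. Deviations of same-numbered arrays had correlations from -0.45 to 0.20, and those of differently numbered arrays from -0.29 to 0.40. No pairing by number was seen. With so few arrays per group, this cannot decide whether equal numbers share a mouse.

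The signal limits weak genes most. The median gene lay at 1.94, and many called genes were near it on one side, where RMA leaves differences small and no detection call separates signal from background. With 3 D2.OR 3D nodules, of which nodule 2 differed from the others in muscle and tumor line genes, the lower genes of some lists rose in number without that nodule, from 0 to 9 for interferon, 3 to 9 for fibroblasts and 2 to 8 for alveolar type II cells.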
